A study of Mus musculus with 4 samples.

Results

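The cells described here are tumour macrophages with high counts of Mmp12 and Mmp13, which encode a macrophage elastase and a collagenase of the matrix metalloproteinase family. They were chosen by their own counts of unique molecular identifiers (UMIs, 1 for each captured transcript) in 4 droplet-based 3' single-cell RNA libraries. A cell needed at least 200 detected genes, under 20% mitochondrial UMIs, at least 3 UMIs summed over the macrophage genes Csf1r, Cd68 and Adgre1, 0 UMIs of Cd3d, Cd3e and Cd3g, at least 5 UMIs summed over Mmp12 and Mmp13, and fewer than 2 UMIs summed over the proliferation genes Mki67 and Top2a. The rule found 1606 cells, which are 6.075% of the 26435 cells kept and 21.64% of the 7422 non-cycling macrophages that the same rule finds without the Mmp12 and Mmp13 minimum. The remaining 5816 non-cycling macrophages, with fewer than 5 such UMIs, are called other macrophages.

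The tissue was the MT4788 breast tumour, grown orthotopically in syngeneic FVB mice of wild-type genotype, taken on day 4 and enriched for CD45-positive leukocytes on magnetic columns, with 10000 cells loaded per condition. The control received saline and PBS, the phenformin group saline and phenformin, the poly I:C group poly I:C and PBS, and the combination poly I:C and phenformin. Phenformin, a biguanide, blocks mitochondrial complex I, and poly I:C is a synthetic RNA duplex that activates Toll-like receptor 3 and RNA sensors of the cytosol. Each treatment had 1 library, so no test between treatments was possible, tumour and treatment cannot be told apart, and every 95% interval covers counting error only. The sources used here give no dose, schedule or age of the mice.

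Mmp12 degrades elastin and is made largely by macrophages, and Mmp13 cleaves fibrillar collagen and is also made by osteoblasts, chondrocytes and fibroblasts. Macrophages that take up lipid and cell debris in tumours, plaques and adipose tissue are known for Trem2, a receptor for lipids, and Fabp5, a fatty acid carrier. Atp6v0d2 encodes a subunit of the proton pump of lysosomes and, like Dcstamp, takes part in the fusion of osteoclast precursors. Transcription of collagenase genes is known to use AP-1, a dimer of Fos and Jun proteins.

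Mmp13 lies at chr9:7272514-7283331 and Mmp12 at chr9:7344381-7369499, in the same direction on the forward strand of GRCm38, and Trem2 lies at chr17:48346401-48354147. The promoter windows of these 3 genes are shown because each holds a match to the AP-1 motif TGANTCA, which is its own reverse complement, so that both strands give the same matches. A window runs from 250 bases before to 50 bases after a RefSeq gene start on GRCm38.p6, 5′ to 3′ on the gene's strand, with the match in capitals.
Mmp13, chr9:7272264-7272563, forward strand: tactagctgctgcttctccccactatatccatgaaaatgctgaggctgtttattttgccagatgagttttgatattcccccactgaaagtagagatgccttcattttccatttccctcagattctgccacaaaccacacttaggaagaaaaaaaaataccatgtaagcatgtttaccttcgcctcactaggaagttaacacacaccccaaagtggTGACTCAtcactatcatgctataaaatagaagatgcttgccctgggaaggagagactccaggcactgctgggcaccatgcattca
Mmp12, chr9:7347124-7347423, forward strand: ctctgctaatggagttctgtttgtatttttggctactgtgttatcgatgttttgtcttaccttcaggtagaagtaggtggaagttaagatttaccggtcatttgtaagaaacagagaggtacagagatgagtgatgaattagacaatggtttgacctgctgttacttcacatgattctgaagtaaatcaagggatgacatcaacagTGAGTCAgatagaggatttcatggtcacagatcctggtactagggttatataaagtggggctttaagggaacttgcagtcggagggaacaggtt
Trem2, chr17:48346151-48346450, forward strand: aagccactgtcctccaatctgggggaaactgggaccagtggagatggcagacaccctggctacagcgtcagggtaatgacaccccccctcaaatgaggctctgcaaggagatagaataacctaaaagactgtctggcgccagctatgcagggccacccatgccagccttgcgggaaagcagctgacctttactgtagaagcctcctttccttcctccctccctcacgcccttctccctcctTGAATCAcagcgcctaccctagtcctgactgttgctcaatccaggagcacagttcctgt
The match begins 35 bases before the start of Mmp13, 44 before that of Mmp12 and 9 before that of Trem2. The N of the motif admits any base, and it is C in Mmp13, G in Mmp12 and A in Trem2. The window of another RefSeq start of Mmp12, at chr9:7344147-7344446, has 0 matches. That window spans the first base of the gene as placed above, and the Mmp12 window shown lies inside the gene. No window of Atp6v0d2 or Fabp5 was available, so these genes were not searched. Of 32851 windows of this length, 2565 or 7.81% hold the motif at least once. A match is a description of the letters and not of binding.

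The AP-1 genes themselves were measured in the same cells. In CPM, the UMIs of a gene summed over the cells of a library and scaled by the sum over all genes, Fos was at 194, 187, 219 and 233 in control, phenformin, poly I:C and combination, against 371, 324, 375 and 389 CPM in other macrophages. Jun was at 69.9, 84.4, 113 and 124 CPM against 97, 132, 182 and 111 CPM. Of 21 AP-1 genes and other regulators of metalloproteinase genes, 12 were abundant enough to be compared with other macrophages, and 0 were 2-fold apart in all 4 libraries. Over all genes, 0.578% were at least 2-fold higher and 0.506% lower in all 4, so 0 of 12 does not set these genes apart.

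The label was checked on 10 macrophage genes that the rule did not use. All 10 were detected in each library, with a summed level of 14230 to 23176 CPM, against 13165 to 22303 CPM in other macrophages. The other 3 marker genes proposed for these cells were higher than in other macrophages, as a description, since they come from the same data. Trem2 was at 182, 171, 329.5 and 327 CPM in control, phenformin, poly I:C and combination, against 58.4, 73.6, 160.4 and 155 CPM. Fabp5 was at 1198, 1218, 2408 and 2142 CPM against 436, 553, 973 and 796 CPM. Atp6v0d2 was at 56, 55.9, 85.4 and 66.9 CPM against 6.89, 7.8, 12.7 and 4.68 CPM. In T cells of the same libraries, taken as cells with at least 3 Cd3 UMIs and 0 UMIs of the 3 macrophage genes, Trem2 was at 1.19, 0.894, 2.34 and 3.09 CPM and Atp6v0d2 at 0.638, 0.894, 0.586 and 0.263 CPM, which serve as the background level; free RNA and expression by T cells were not told apart.

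Markers of other cells were summed by list and set beside the levels in other macrophages. The T and NK cell list summed to 7.46 to 13.7 CPM against 30.9 to 56.3 CPM, the B and plasma cell list to 7.07 to 8.33 CPM against 18.5 to 90.3 CPM and the neutrophil list to 39.8 to 133 CPM against 125 to 491 CPM, with Ly6g at 0 UMIs in the chosen cells of all 4 libraries. The endothelial list summed to 72.2 to 103 CPM, of which 68.2 to 101 CPM was Pecam1, against 79.6 to 120 CPM. The epithelial list summed to 112, 138, 192 and 107 CPM in control, phenformin, poly I:C and combination against 213, 93.1, 115 and 130.4 CPM, so it was higher in the chosen cells with phenformin and with poly I:C. The fibroblast list summed to 145, 3.34, 18 and 154 CPM against 55.5, 84.1, 144 and 123 CPM, higher in the chosen cells in control and in the combination. The monocyte list summed to 530 to 719 CPM against 2196 to 3084 CPM in other macrophages, and the dendritic list to 28.4 to 71.8 CPM against 102 to 211 CPM. A large part of the dendritic sum in other macrophages was Siglech, a gene of plasmacytoid dendritic cells. It was at 104, 97.2, 68.3 and 92.7 CPM there in control, phenformin, poly I:C and combination, and at 2.08, 0.643, 5.29 and 0 CPM in the chosen cells. Each pair of libraries shared 11 to 29 cell barcodes, of which at most 1 belonged to these macrophages.

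There were 363, 475, 461 and 307 of these cells in control, phenformin, poly I:C and combination, with 4804515, 7777263, 7555896 and 4112955 UMIs in all. The median cell had 12539, 15053, 14822 and 12521 UMIs and 3115, 3434, 3345 and 3112 genes, against 7830, 10005, 9877 and 8798 UMIs and 2495, 2847, 2731 and 2643 genes in other macrophages. The chosen cells were the deeper ones in every library, and a minimum in UMIs is reached more easily in a deep cell.

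The first question was how frequent these macrophages were under each treatment. They made up 22.6% (20.6 to 24.7%) of non-cycling macrophages in control and 26% (24 to 28.1%) under phenformin, with exact binomial intervals in parentheses. Under poly I:C they were 23.4% (21.5 to 25.3%), and in the combination 15.2% (13.7 to 16.9%). The combination had the lowest share, and its interval did not overlap those of the other 3 libraries. As a share of all kept cells they were 5.96, 8.71, 6.96 and 3.71%. With every cell thinned to 5000 UMIs and shallower cells left out, the shares were 18.9% (16.6 to 21.3%), 19.1% (17.1 to 21.2%), 17.3% (15.6 to 19.2%) and 12% (10.5 to 13.7%). The combination was again the lowest, its interval overlapped none of the others, and the other 3 overlapped each other. These are shares of recovered CD45-enriched cells.

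**Figure D1:**
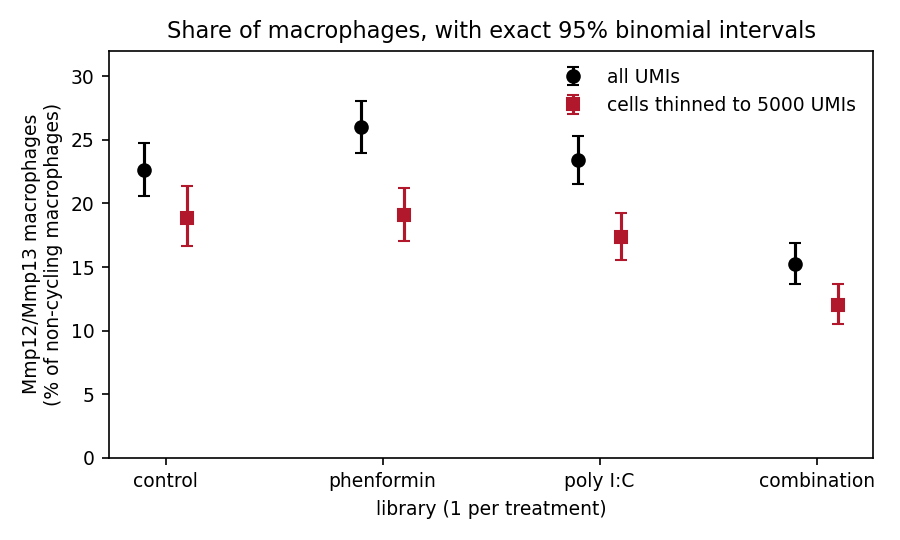
Mmp12 and Mmp13 macrophages as a percentage of non-cycling macrophages (vertical axis) in the 4 libraries (horizontal axis), with exact 95% binomial intervals as bars, from all UMIs and after thinning each cell to 5000 UMIs. The combination is the lowest in both, at 15.2% and 12%.

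The minimum of 5 UMIs cuts a sparse stretch of the distribution. Non-cycling macrophages with 0 Mmp12 and Mmp13 UMIs numbered 950, 1016, 1162 and 1435 in control, phenformin, poly I:C and combination. Just outside the minimum, 20, 36, 36 and 26 had 4 UMIs, and just inside it, 25, 26, 36 and 25 had 5. More than 10 UMIs were found in 270, 366, 328 and 225 cells, so most of the chosen cells lay well above the minimum.

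Cycling cells were left out by the rule. Among macrophages with at least 5 Mmp12 and Mmp13 UMIs, 60, 63, 83 and 60 cells or 14.2, 11.7, 15.3 and 16.3% were cycling, and among the remaining macrophages 10.7, 11.2, 11.3 and 15.8% were. The 2 intervals overlapped in each library.

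Mmp12 gave more UMIs than Mmp13 in every library; UMIs count the 3' ends of transcripts and do not grow with their length. Its level in the chosen cells was 3595, 2996, 2496 and 3465 CPM in control, phenformin, poly I:C and combination, and that of Mmp13 was 907, 748, 569.6 and 832 CPM, both fixed in part by the rule. T cells held 12.7, 11.5, 5.77 and 7.81 CPM of Mmp12. The median cell had 18, 18, 16 and 17 Mmp12 UMIs and 2, 3, 3 and 4 Mmp13 UMIs, and the highest single cell had 475, 825, 777 and 385 Mmp12 UMIs. The tenth of cells with most held 44.9, 49.8, 49.5 and 45.5% of the UMIs of both genes, so the transcripts were spread unevenly among the cells. The chosen cells held 64.7, 73.5, 73.3 and 70.3% of all Mmp12 UMIs of their library and 69.3, 79.1, 65.5 and 64.4% of all Mmp13 UMIs.

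Most cells carried both transcripts. Both were found in 51.8, 55.2, 57.7 and 60.3% of the cells in control, phenformin, poly I:C and combination, Mmp12 alone in 38.8, 36.4, 36 and 32.9% and Mmp13 alone in 9.37, 8.42, 6.29 and 6.84%. The share with both was 46.5 to 57% by its interval in control and 54.5 to 65.8% in the combination, which overlap. Mmp13 exceeded Mmp12 in 20.7, 24, 18.2 and 19.5% of the cells.

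Over all non-cycling macrophages, which neither gene had chosen, both genes were lower in the libraries with poly I:C. Mmp12 was at 1122, 1045, 804 and 719 CPM in control, phenformin, poly I:C and combination. Its ratio was 0.716 (0.702 to 0.731) for poly I:C over control and 0.688 (0.674 to 0.702) for the combination over phenformin. Mmp13 was at 286, 266, 191 and 180.1 CPM, with ratios of 0.666 (0.639 to 0.695) and 0.676 (0.649 to 0.705). The ratios with phenformin were nearer to 1, at 0.932 (0.914 to 0.95) for Mmp12 and 0.931 (0.896 to 0.968) for Mmp13 over control, and 0.895 (0.876 to 0.915) and 0.945 (0.904 to 0.987) in the combination over poly I:C. None of these differences was 2-fold. An Mmp12 UMI was found in 34.2, 36.9, 33.6 and 22.6% of non-cycling macrophages and an Mmp13 UMI in 19.8, 23.2, 22.7 and 16.7%, against 9.71, 9.56, 2.94 and 4.64% and 2.23, 0.877, 0.438 and 0.564% of T cells, whose median depth was 6416, 6950, 5632 and 4856 UMIs. From control to poly I:C the share of macrophages with an Mmp12 UMI hardly differed and that with an Mmp13 UMI was higher, while both levels were lower. From phenformin to the combination both shares were lower, while the levels within the chosen cells, given above, were higher. The part of depth in these shares was not tested.

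Fabp5 and Arg1, which the rule did not use, were higher in macrophages with more Mmp12 and Mmp13 UMIs, and already so below the minimum of 5, though not at every step. Fabp5 was at 415, 508, 851 and 729.6 CPM at 0 UMIs in control, phenformin, poly I:C and combination, at 787, 637, 1434 and 1319.6 CPM at 3 to 4 UMIs and at 1610.3, 1837, 3502 and 2761 CPM at 50 or more. Arg1, an arginase of macrophages, was at 190.4, 259, 105 and 85 CPM at 0 UMIs and at 1200.4, 1425, 933 and 1236 CPM at 50 or more. Both genes were higher at 50 or more UMIs than at 0 in each of the 4 libraries.

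Atp6v0d2 was at 5.54, 7.44, 9.05 and 3.76 CPM at 0 UMIs and at 100.2, 117, 167 and 139 CPM at 50 or more. Trem2 was at 50.3, 69.2, 140.4 and 133 CPM and 247, 249, 443 and 425 CPM. C1qa, a chain of complement C1q, differed from them: it was at 1977, 2266, 4164 and 5736 CPM at 0 UMIs and 3796, 3268, 5114 and 5005 CPM at 50 or more, so the combination was no higher at the top. The median depth went from 7709, 9714, 9470.5 and 8580 UMIs per cell to 14636, 18289, 18321 and 14467, and its part in these levels was not tested.

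**Figure D2:**
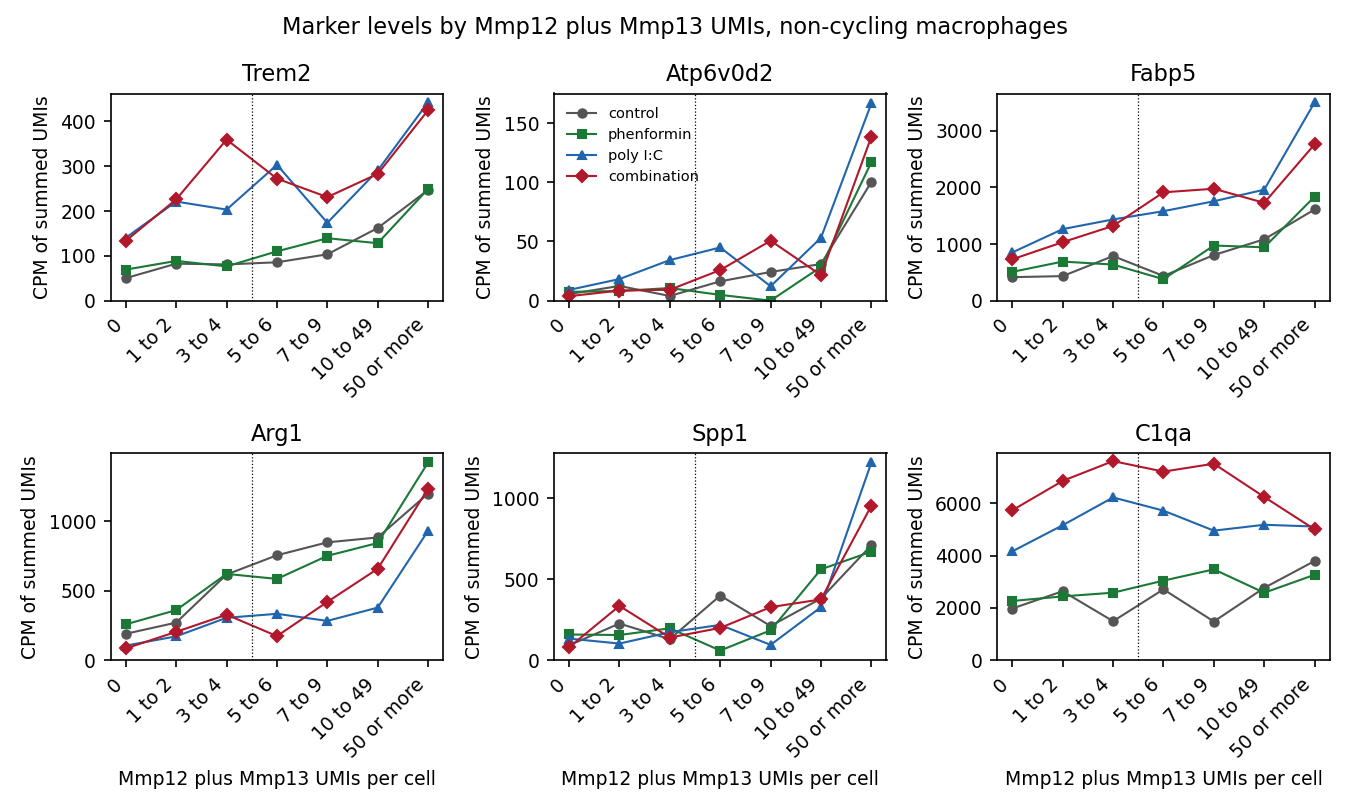
Levels of 6 genes in CPM of summed UMIs (vertical axes) in non-cycling macrophages grouped by their Mmp12 plus Mmp13 UMIs per cell (horizontal axes), with 1 line per library and a dotted line at the minimum of 5. Atp6v0d2 lies at 5.54, 7.44, 9.05 and 3.76 CPM at 0 UMIs and at 100.2, 117, 167 and 139 CPM at 50 or more in control, phenformin, poly I:C and combination.

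Set against other macrophages of the same library, 16 of 2768 genes were at least 2-fold higher in all 4 libraries (0.578%) and 14 were at least 2-fold lower (0.506%). A gene was compared when it reached 50 CPM and 30 UMIs on the higher side, and the genes of the rule were left out. The cells were chosen by counts in the same cells, so the ratios are a description. By median ratio Atp6v0d2 was the highest, with 6.72 to 14.3 over the 4 libraries, followed by Tnfrsf9, the costimulatory receptor 4-1BB, with 4.51 to 16.4. Ccl17, a chemokine for T cells that bear Ccr4, had 3.41 to 11, and coagulation factor F7 had 3.12 to 4.49. Arg1 had 3.37 to 7.06, Dcstamp 2.44 to 4.21, the lipoprotein lipase Lpl 2.2 to 6.61 and the eosinophil chemokine Ccl24 2.8 to 10.7. The cationic amino acid carrier Slc7a2 had 2.23 to 3.27, the proteoglycan Sdc1 2.37 to 5.56 and the surface protein Plet1 3.26 to 6.26. AA467197 had 2.68 to 4.63 and Prelid2 2.28 to 4.21.

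Spp1, the secreted protein osteopontin, had ratios of 3.3 to 4.61. It was at 496, 532, 587 and 558 CPM in the chosen cells and 122, 161, 131 and 121 CPM in other macrophages in control, phenformin, poly I:C and combination. T cells held 267, 116, 249 and 273 CPM, which was above other macrophages in 3 of the 4 libraries and below the chosen cells in all 4. A Spp1 UMI was found in 24.8, 19.9, 21.8 and 22.2% of T cells and 16.1, 20.8, 20.6 and 14.1% of the deeper other macrophages, and whether T cells express Spp1 or hold free RNA was not tested.

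The genes lower than in other macrophages included those of plasmacytoid dendritic cells and of monocytes. Siglech, a lectin of plasmacytoid cells, was at 2.08, 0.643, 5.29 and 0 CPM against 104, 97.2, 68.3 and 92.7 CPM, so the rule for other macrophages takes in some plasmacytoid cells. Klk1, Ccr9 and Ly6d had ratios of 0.00138 to 0.0527, 0.0135 to 0.0681 and 0.0562 to 0.251. The monocyte gene Ly6c2 was at 66, 63.5, 171 and 81.2 CPM against 654, 559, 629.9 and 690.2 CPM, and Plac8, also found in monocytes, had ratios of 0.198 to 0.353. The monocyte chemokine Ccl7 had 0.194 to 0.354, the matrix protein Thbs1 0.168 to 0.434, Slfn1 0.184 to 0.452 and Ms4a4c 0.311 to 0.497.

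Most other metalloproteinases were too low to be compared. Of 17 further metalloproteinases and ADAM proteases, 6 were compared. Of these, 0 were 2-fold apart from other macrophages in all 4 libraries or between treatments. Over all genes, 0.578% were higher and 0.506% lower than in other macrophages, and 0.138 to 1.45% were in each direction between treatments. A count of 0 of 6 therefore does not set these genes apart. Mmp14, a membrane-bound enzyme that activates other metalloproteinases, was at 189.6, 178, 194 and 198 CPM in control, phenformin, poly I:C and combination. Mmp19 was at 417, 399.9, 444 and 279 CPM and Adam8, a sheddase of leukocytes, at 548, 527, 512 and 578 CPM. The inhibitor Timp2 was at 295, 225, 408 and 482 CPM, a ratio of 2.14 (2.01 to 2.29) for the combination over phenformin.

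Arg1 and Nos2, which use the same substrate arginine, were both found. Arg1 was at 992, 1024, 548 and 788 CPM in control, phenformin, poly I:C and combination, against 227, 304, 133 and 112 CPM in other macrophages. Nos2 was at 243, 242, 282 and 187 CPM against 91.8, 126, 162 and 76.7 CPM, with 1.82, 1.25, 2.26 and 0.591 CPM in T cells. An Arg1 UMI was found in 61.4, 61.7, 57.9 and 63.8% of the chosen cells. The ratio for Arg1 was 0.552 (0.529 to 0.576) for poly I:C over control and 0.77 (0.739 to 0.802) for the combination over phenformin.

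Some genes of the lipid and osteoclast lists were 2-fold higher than in other macrophages, where 0.578% of all genes were. Of 17 genes of lipid-associated macrophages compared, 4 were higher in all 4 libraries and 0 lower, with a median log2 ratio of 0.87, against -0.09 over all genes. The higher ones were Spp1, Lpl, Fabp5 and Trem2. Fabp5 and Trem2 are marker genes proposed for these cells from the same data, so this count is fixed in part by that choice. Of 13 genes of a wider lipid handling list, 2 were higher and 0 lower, with a median of 0.25. Of 4 osteoclast genes, 1 was higher, Dcstamp, with a median of 1.20. Of 15 proton pump genes, 1 was higher, Atp6v0d2, which is also such a marker, with a median of 0.07. Of 21 glycolysis and hypoxia genes 0 were counted, with a median of 0.52, and of 25 lysosome genes 0 were, with a median of 0.30.

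The chosen cells were not uniform. Cells with at least 5 Mmp13 UMIs, 153, 213, 195 and 145 in control, phenformin, poly I:C and combination, were set against those with 0, which numbered 141, 173, 166 and 101, a split made after the data were seen. Their median depths were 12166, 14276, 15545 and 12223 and 13220, 15437, 14604 and 12708 UMIs. Of 2577 genes compared in all 4 libraries, 17 were at least 2-fold higher in each (0.66%) and 12 at least 2-fold lower (0.466%). The rule used Mmp13, so this is a description.

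The higher genes on the Mmp13 side were led by Pdpn and Itga9. Pdpn, a mucin-like membrane protein, had ratios of 13.2, 6.36, 3.27 and 2.44 in control, phenformin, poly I:C and combination. Ms4a7, a membrane protein of macrophages, had 7.39, 4.7, 2.39 and 2.1, and the lysosomal protease Lgmn 5.78, 3.96, 2.24 and 2.9. C1qa had 5.26, 3.3, 2.12 and 2.06 and Trem2 4.74, 2.26, 2.24 and 2.56. For Pdpn, Ms4a7, C1qa and Trem2 the ratio was highest in control. Arg1 had 2.9, 3.71, 2.91 and 3.6, Spp1 2.25, 5.83, 3.56 and 2.9 and the chemokine Pf4 4.46, 3.33, 2.13 and 3.1. The integrins Itga9 and Itgb5, the chemokine Ccl12, Cd93, Cd72, Npl, Mylip and the B cell survival factor Tnfsf13b had median ratios of 2.69 to 4.37.

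Ccl17, Plet1 and Lpl lay on the side without Mmp13. Ccl17 was at 524, 876, 325 and 309 CPM in cells with 0 Mmp13 UMIs and at 47.1, 232, 12.5 and 9.36 CPM in cells with 5 or more. Plet1 was at 595, 1366, 384 and 257 CPM and 155, 202, 33.4 and 1.04 CPM. Lpl was at 358, 241, 473 and 743 CPM and 33.1, 81.2, 107 and 80.6 CPM. All 3 genes were lower on the Mmp13 side in each of the 4 libraries. Dcstamp, S100a4, Hopx, Ramp3, Ccdc109b, Tuba1a and Inhba had median ratios of 0.23 to 0.364. The MHC class II gene H2-Ab1 was close on both sides, at 9017, 9883, 10218 and 10668 CPM and 10774, 10163, 9387 and 8934 CPM. Flt3 and Zbtb46, genes of conventional dendritic cells, were at 0 to 1.91 CPM and 1.15 to 4.4 CPM in cells with 0 Mmp13 UMIs.

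**Figure D3:**
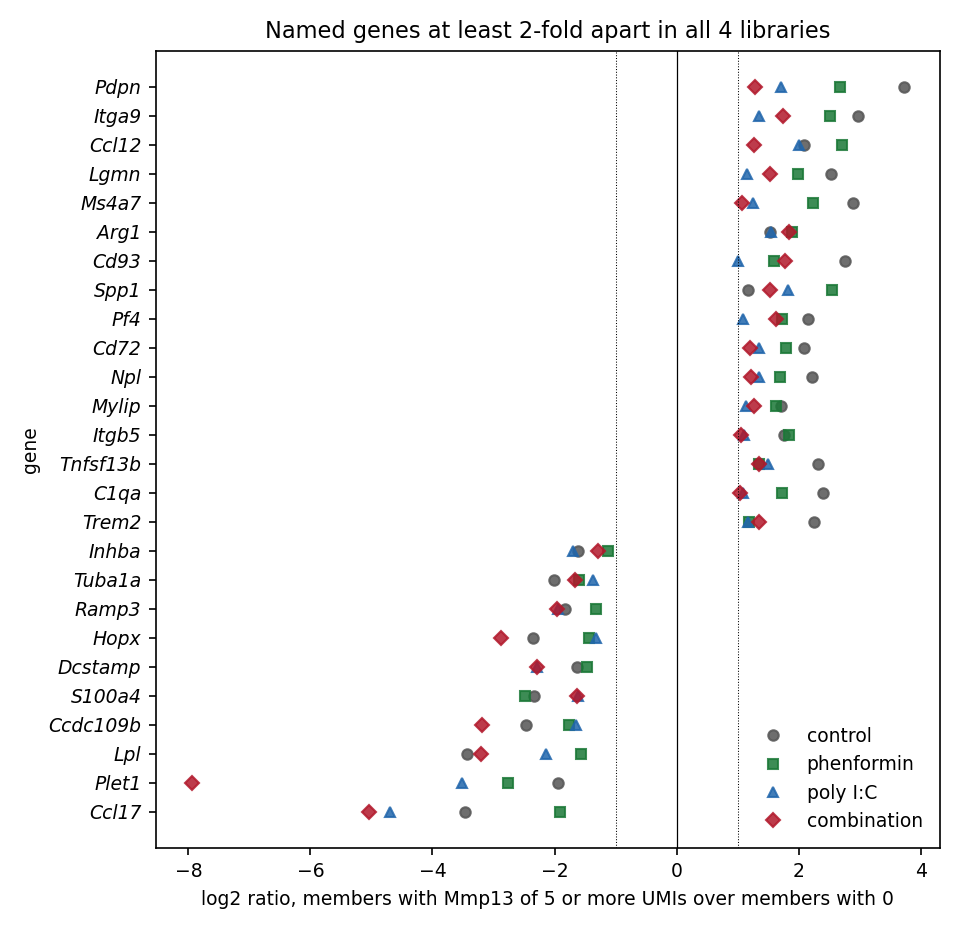
Log2 ratio (horizontal axis) of cells with at least 5 Mmp13 UMIs over cells with 0, both among the Mmp12 and Mmp13 macrophages, for 26 named genes (vertical axis), with 1 symbol per library. The genes that are at least 2-fold higher in all 4 libraries are 16 of the 26 and the lower ones 10, with Ccl17 and Plet1 lowest by median.

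Ccl17 was concentrated in few cells. It had a UMI in 81, 148, 55 and 26 of the chosen cells in control, phenformin, poly I:C and combination, which is 22.3, 31.2, 11.9 and 8.47%. Plet1 was found in 67.9, 69.6, 45.4 and 34.6% of the Ccl17 cells and in 16, 15, 8.87 and 4.98% of the rest. Ccl22, the other known ligand of Ccr4, was at 117, 66.8, 83.2 and 128 CPM against 6.33, 5.11, 4.76 and 2.42 CPM. Genes of dendritic cells were found in few of the Ccl17 cells, at higher levels than in the rest in most libraries. Cd209a, a lectin, was at 17.3, 5.51, 4.78 and 12.8 CPM against 0.863, 1.06, 0 and 0 CPM, with a UMI in 4, 4, 3 and 2 Ccl17 cells. Fscn1, an actin bundler of mature dendritic cells, was at 10.6, 17.2, 0 and 23.1 CPM against 2.59, 2.34, 4.61 and 1.88 CPM, with a UMI in 3, 5, 0 and 1. Zbtb46 was at 3.77, 0.973, 2.87 and 12.8 CPM against 1.44, 1.06, 0.461 and 0.806 CPM, with a UMI in 5, 2, 2 and 5, and in the combination 19.2% of Ccl17 cells had one against 1.07% of the rest. Arg1 was lower in the Ccl17 cells, at 431, 461, 213 and 108 CPM against 1206, 1393, 601 and 859 CPM, and so was Mmp13, at 401, 202, 337 and 97.4 CPM against 1100, 1107, 607 and 908 CPM. Mmp12 had ratios of 0.96, 1.27, 0.967 and 0.716. The Ccl17 cells had a median of 14654, 19542, 17893 and 17016 UMIs against 11356, 13281, 14440 and 12374, and the part of depth in finding a Ccl17 UMI was not tested.

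Poly I:C could be read in 2 backgrounds, as poly I:C over control and as the combination over phenformin, which share no library. A gene was counted when its ratio of CPM was at least 2-fold and its interval excluded 1. Of 2961 genes compared, 33 were higher (1.11%) and 43 lower (1.45%) with poly I:C than in control, a split that scaling by trimmed means (TMM) moved to 41 and 33. Of 2924, 35 were higher (1.2%) and 36 lower (1.23%) in the combination than with phenformin. Among 2820 genes compared in both, 9 were higher in both, 32.1% of the 28 and 33.3% of the 27 higher genes. Another 12 were lower in both, 34.3% of the 35 and 36.4% of the 33 lower genes, and 0 went opposite ways. In other macrophages, 11 of 31 of the higher and 13 of 30 of the lower genes over control that could be compared were also 2-fold apart in the same direction. Of all 3174 genes compared there, 32 were higher and 20 lower. For the combination over phenformin, 12 of 25 higher and 16 of 32 lower genes were also 2-fold apart in the same direction there. Of all 3144 genes compared there, 34 were higher and 43 lower.

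Ccl24, a ligand of the eosinophil receptor Ccr3, had the lowest ratio of the genes lower in both. It was at 4279, 4966, 572 and 359.6 CPM in control, phenformin, poly I:C and combination, and the libraries with poly I:C lay far below those without. The ratio was 0.134 (0.129 to 0.138) over control and 0.0724 (0.0687 to 0.0763) in the combination over phenformin. After thinning, a Ccl24 UMI was found in 78.1, 72.8, 21.1 and 17.9% of the chosen cells and in 7.09, 9.36, 0.94 and 0.448% of T cells. Other macrophages showed the same order, at 1515, 1773, 199.7 and 33.7 CPM.

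Genes of alternative activation, the programme known from interleukin-4, were more often counted as lower than as higher with poly I:C, beside 1.45% of all genes lower over control and 1.23% in the combination over phenformin. Of 11 compared, 5 were lower and 0 higher over control, with a median log2 ratio of -0.86, against -0.07 over all genes. Of 12 in the combination over phenformin, 5 were lower and 1 higher, with a median of -0.47 against -0.05. Mgl2, a galactose lectin, was at 237, 249.8, 66.3 and 76.1 CPM in control, phenformin, poly I:C and combination, with ratios of 0.279 (0.251 to 0.311) and 0.305 (0.27 to 0.343). Chil3, a chitinase-like protein, was at 195, 186, 86.4 and 29.9 CPM, with 0.443 (0.400 to 0.49) and 0.16 (0.132 to 0.193), while other macrophages held 84.4, 195, 176 and 150.3 CPM. Ccl17 was at 267, 579.5, 131 and 108 CPM, with 0.49 (0.45 to 0.532) and 0.185 (0.168 to 0.204). Folr2, a folate receptor, was the higher gene, at 15.2, 15.9, 36.7 and 54.2 CPM and a ratio of 3.4 (2.72 to 4.27) in the combination over phenformin.

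Other genes lower in both backgrounds have varied roles. Flt1, a receptor of vascular endothelial growth factor, was at 89.1, 98, 27.5 and 10.7 CPM in control, phenformin, poly I:C and combination, with ratios of 0.309 (0.261 to 0.366) and 0.109 (0.0787 to 0.148). Dcstamp was at 266, 232, 90.4 and 110.1 CPM, with 0.34 (0.31 to 0.374) and 0.475 (0.428 to 0.527). Plet1 was at 360.5, 719, 179.9 and 87.3 CPM, with 0.499 (0.464 to 0.536) and 0.121 (0.109 to 0.135). The sialyltransferase St8sia4, the nuclear receptor Nr4a2, Tmem176a and Klrb1b were also among the 12. Over control, Ccl17 and Plet1 missed 2-fold under TMM scaling, with log2 ratios of -0.96 and -0.93.

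Further genes were among the lowest in 1 of the backgrounds. Ccr2, the receptor by which monocytes follow Ccl2, was at 89.9, 53.9, 18.8 and 47.4 CPM in control, phenformin, poly I:C and combination, with 0.209 (0.172 to 0.253) over control and 0.88 (0.739 to 1.04) in the combination over phenformin. The lysozyme Lyz1 was at 116, 86, 10.7 and 44.7 CPM, with 0.0921 (0.0721 to 0.116) and 0.52 (0.439 to 0.613), and as a close copy of Lyz2 it may share reads with it. AY761185 was at 63.1, 48.6, 3.04 and 3.4 CPM, with 0.0483 (0.0301 to 0.0738) over control, and 1 control cell held 31.4% of its UMIs. Edn1, the vasoconstrictor endothelin, was at 59.1, 90.8, 37.3 and 15.8 CPM, with 0.174 (0.133 to 0.225) in the combination over phenformin and 0.631 (0.534 to 0.747) over control.

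A sum over cells can differ through the mix of cells, so the same ratios were taken within cells of 0 Mmp13 UMIs and within cells of 5 or more. For poly I:C over control, Ccl24 had 0.188 and 0.109 in the 2 kinds of cell and Mgl2 had 0.33 and 0.25. Dcstamp had 0.388 and 0.247, and Ccl17 had 0.619 and 0.266. Plet1 had 0.645, under 2-fold, and 0.216. In the combination over phenformin, Plet1 had 0.188 and 0.00516, the second from 2 UMIs against 690, with an interval of 0.000624 to 0.0187. Over the 4 comparisons, 76 counted values of 44 genes, those ranked highest or lowest and some markers, were split in this way. Of these, 39 were at least 2-fold in the same direction in both kinds of cell, 31 missed 2-fold in at least 1, and 6 lay on the opposite side of 1 in 1 kind of cell with an interval that excluded 1. The last were Rsad2 in both single treatments over control, Retnla and Col1a1 in the combination over poly I:C, Col1a2 for poly I:C over control and Sparc in the combination over phenformin. These intervals do not hold the spread between cells.

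The 9 genes higher in both backgrounds were Apoe, Pf4, Ctsl, Wfdc17, Ccl5, Ms4a7, Syngr1, Tmem140 and Ckb. Apoe, an apolipoprotein that carries cholesterol out of macrophages, was at 2610, 3601, 11064 and 7966 CPM in control, phenformin, poly I:C and combination, with ratios of 4.24 (4.16 to 4.32) and 2.21 (2.18 to 2.25). Other macrophages had 2245, 4296, 13078 and 8697 CPM and T cells 34.5, 40.2, 132 and 118 CPM, so the level in T cells was also higher with poly I:C, far below that in macrophages. Over control, Apoe had ratios of 10.4 and 2.86 within cells of 0 and of 5 or more Mmp13 UMIs. Pf4 was at 101, 212, 667 and 581 CPM, with 6.62 (6.03 to 7.28) and 2.75 (2.58 to 2.93). Ctsl, a lysosomal protease, was at 266, 341, 983 and 810.1 CPM, with 3.7 (3.49 to 3.93) and 2.38 (2.26 to 2.5), against 203, 206, 344 and 316 CPM in other macrophages. Wfdc17 was at 254, 391, 877 and 802 CPM and the T cell chemokine Ccl5 at 586, 770.1, 1461 and 1576 CPM. Over control, the matrix protein Ecm1 was also among the highest, at 93.4, 142, 302 and 244 CPM and a ratio of 3.24 (2.92 to 3.59), with 1.72 (1.58 to 1.87) in the combination over phenformin. The cytochrome P450 gene Cyp4f18 was at 18.3, 39.1, 57.8 and 41.6 CPM, with 3.16 (2.51 to 4.02), and the monocyte chemokine Ccl2 at 18.9, 47.6, 56.1 and 65.4 CPM, with 2.96 (2.36 to 3.76).

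**Figure D4:**
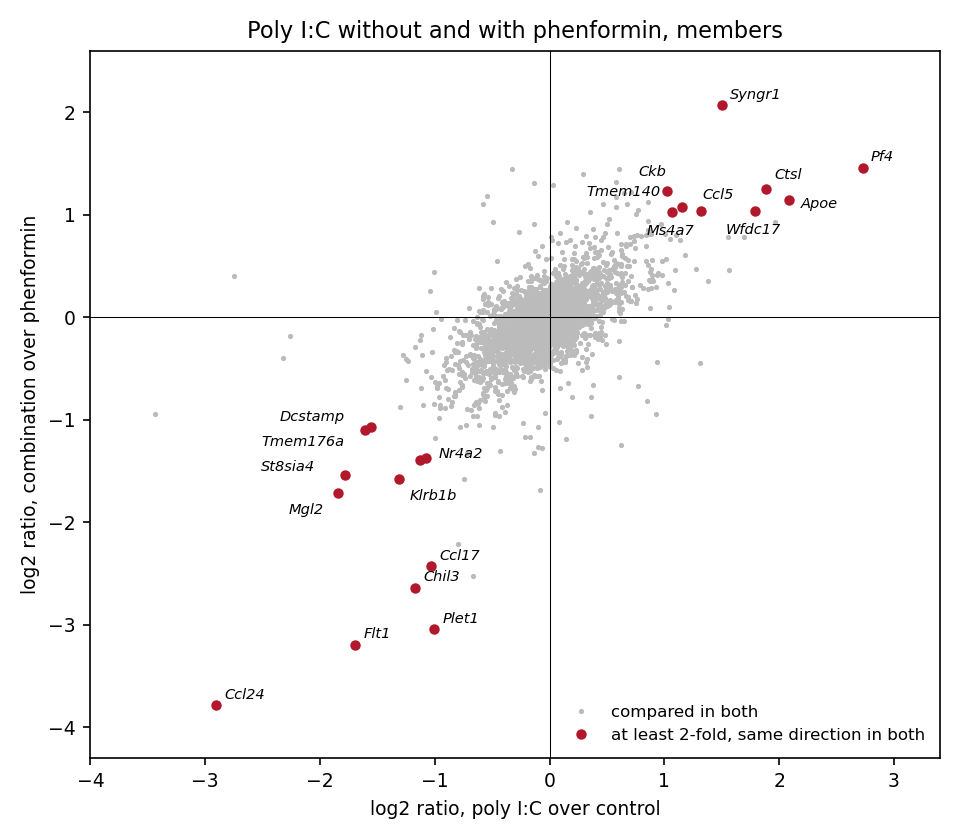
Log2 ratio of poly I:C over control (horizontal axis) and of the combination over phenformin (vertical axis) for 2820 genes in Mmp12 and Mmp13 macrophages, with 1 dot per gene. The 21 genes that are at least 2-fold apart in the same direction in both are red, 9 higher and 12 lower, and those given in the text are named, with Ccl24 the lowest on both axes among them.

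Genes of lipid-associated macrophages were counted as higher and not as lower with poly I:C, beside 1.11% of all genes higher over control and 1.2% in the combination over phenformin. Of 18 genes of lipid-associated macrophages compared, 5 were higher and 0 lower over control, with a median log2 ratio of 0.58. Of 17 in the combination over phenformin, 2 were higher and 0 lower, with a median of 0.44. Of 14 genes of the wider lipid handling list, 4 were higher and 1 lower over control, and 2 and 1 in the combination over phenformin, with medians of 0.42 and 0.58. Gpnmb, a lysosomal glycoprotein, was at 2.71, 15.2, 53.7 and 45 CPM in control, phenformin, poly I:C and combination, a ratio of 19.9 (11.5 to 37.6) over control, from 13 control UMIs. Plin2, which coats lipid droplets, was at 347, 383, 764 and 645 CPM, with 2.2 (2.08 to 2.33) and 1.68 (1.6 to 1.78). Fabp5 had 2.01 (1.95 to 2.07) over control, and its log2 ratio was 0.64 in thinned cells, under 2-fold. Trem2 had 1.81 (1.68 to 1.96) and 1.91 (1.77 to 2.07), and Atp6v0d2 1.52 (1.32 to 1.76) and 1.2 (1.02 to 1.39), all under 2-fold.

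Some complement and lysosome genes were 2-fold higher with poly I:C, where 1.11% of all genes were over control and 1.2% in the combination over phenformin. Of 13 complement and resident macrophage genes, 0 were higher over control, and of 14, 3 were in the combination over phenformin, with 0 lower in either and median log2 ratios of 0.45 and 0.43, against -0.07 and -0.05 over all genes. C1qa was at 3044, 2932, 5192 and 6044 CPM in control, phenformin, poly I:C and combination, with ratios of 1.71 (1.67 to 1.74) and 2.06 (2.02 to 2.1), and C1qb had 1.81 (1.76 to 1.86) and 2.18 (2.12 to 2.23). Other macrophages held 2092, 2323, 4510 and 5973 CPM of C1qa. In the combination over phenformin, both genes were 2-fold higher in cells of 0 Mmp13 UMIs and under 2-fold in cells of 5 or more. Of 25 lysosome genes, 1 was higher over control and 2 in the combination over phenformin, with 0 lower in either and medians of 0.19 and 0.40. The aspartic protease Ctsd was at 1299, 1159, 2073 and 2497 CPM. Slamf9, a receptor of the SLAM family, was highest in the combination, at 68.3, 51, 69.8 and 125 CPM, with 2.44 (2.14 to 2.79) over phenformin.

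Few interferon-stimulated genes, known targets of poly I:C, were counted, which at the shares over all genes would hold for most short lists. Of 15 type I interferon genes compared, 0 were higher and 1 lower over control, where 1.11% of all genes were higher and 1.45% lower. Their median log2 ratio was 0.16, against -0.07 over all genes. Of 12 in the combination over phenformin 0 were counted, where 1.2% of all genes were higher and 1.23% lower. Their median was 0.28, against -0.05 over all genes. The lower gene was Rsad2, at 149, 68.3, 66.3 and 55.9 CPM in control, phenformin, poly I:C and combination. Its direction differed between the kinds of cell. For poly I:C over control Rsad2 had 3.71 (2.51 to 5.64) in cells with 0 Mmp13 UMIs and 0.248 (0.214 to 0.287) in cells with 5 or more, and for phenformin over control 2.73 (1.83 to 4.18) and 0.252 (0.218 to 0.291), with 31 control UMIs in the first kind and 643 in the second. Isg15 was at 330.3, 262, 356 and 301 CPM. Of 9 MHC class II and costimulation genes, 0 were counted in any of the 4 comparisons, where 0.138 to 1.45% of all genes were in each direction.

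**Figure D5:**
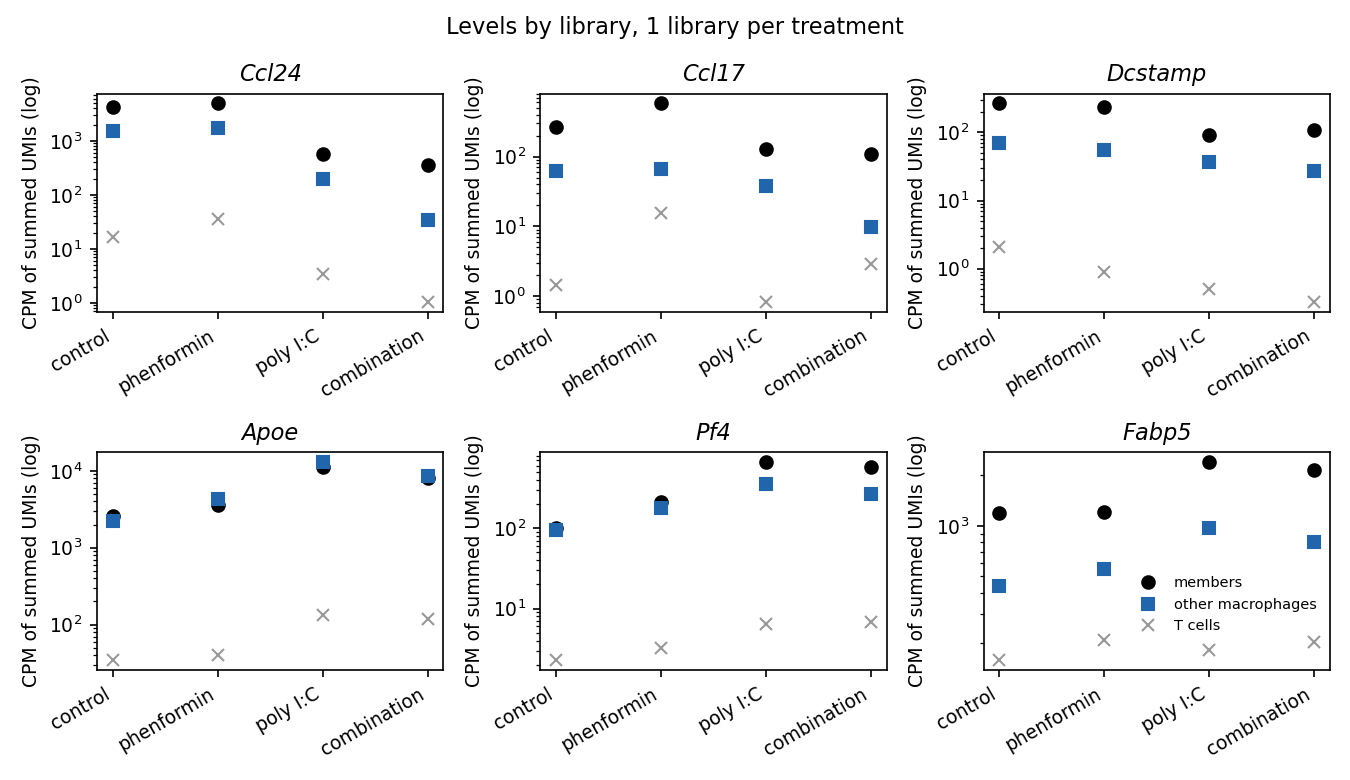
Levels of 6 genes in CPM of summed UMIs (vertical axes, logarithmic) in the 4 libraries (horizontal axes) for Mmp12 and Mmp13 macrophages (members, black circles), other macrophages (blue squares) and T cells (grey crosses). In Mmp12 and Mmp13 macrophages, Ccl24 is at 4279, 4966, 572 and 359.6 CPM and Apoe at 2610, 3601, 11064 and 7966 CPM in control, phenformin, poly I:C and combination.

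Phenformin was read as phenformin over control and as the combination over poly I:C, which again share no library. Of 2902 genes, 4 were higher (0.138%) and 8 lower (0.276%) than in control, and of 2830 genes, 10 were higher (0.353%) and 9 lower (0.318%) than with poly I:C. Of the 2667 genes compared in both, 0 were counted in the same direction, and 1 was counted in opposite directions.

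That gene was Retnla, a resistin-like secreted protein of alternative activation. It was at 630.4, 282, 94 and 372 CPM in control, phenformin, poly I:C and combination, with ratios of 0.448 (0.423 to 0.473) for phenformin over control and 3.96 (3.62 to 4.34) for the combination over poly I:C. Under 3 of the alternatives the first was just under 2-fold, with log2 ratios of -0.997 to -0.94. For poly I:C over control the ratio was 0.149 (0.137 to 0.162). Other macrophages had 578, 396, 64.2 and 202 CPM. In the combination Retnla was found in 35 of the chosen cells, and 1 cell held 22.8% of its UMIs.

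Higher with phenformin than in control were Saa3, Ccl4, Ccl17 and Pf4. Saa3, an acute-phase protein, was at 10.6, 60.3, 48 and 37.7 CPM in control, phenformin, poly I:C and combination, a ratio of 5.68 (4.25 to 7.74), and 28.1% of its phenformin UMIs were in 1 cell. The ratio of Saa3 was 9.2 (5.25 to 17.6) in cells with 0 Mmp13 UMIs and 1.21 (0.745 to 2.01), under 2-fold, in cells with 5 or more. The chemokine Ccl4 was at 23.9, 63.3, 93.2 and 121 CPM, with 2.64 (2.15 to 3.27). Ccl17 had 2.17 (2.04 to 2.31), and its log2 ratio was 0.99 as a mean over cells, just under 2-fold. Pf4 had 2.1 (1.9 to 2.33), and 0.78 on the log2 scale in thinned cells. Other macrophages had 61.6 CPM of Ccl17 in control and 67.4 CPM with phenformin. Their ratios were 3.39 (2.76 to 4.19) for Saa3, 1.88 (1.75 to 2.02) for Pf4 and 1.18 (1.1 to 1.27) for Ccl4. Of the 3 higher genes abundant enough to be compared there, 0 were 2-fold higher, and of all 3119 genes compared there, 3 were.

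Lower with phenformin than in control, besides Retnla and Rsad2, were Ear2 and Ear1, ribonucleases of eosinophils and some macrophages, and Mfge8, which bridges apoptotic cells to phagocytes. Ear2 was at 169, 57.2, 33.8 and 43.5 CPM in control, phenformin, poly I:C and combination, with a ratio of 0.339 (0.302 to 0.382), and Ear1 at 59.3, 25.3, 17.9 and 21.9 CPM, with 0.427 (0.354 to 0.514). Mfge8 was at 94.9, 40.6, 64.2 and 43 CPM, with 0.428 (0.37 to 0.495). The remaining 3 were Timp1, Col1a2 and a numbered gene model. In other macrophages the ratios were 0.464 for Ear2, 0.455 for Ear1, 0.326 for Mfge8, 0.684 for Retnla and 0.869 for Rsad2. Timp1 and Col1a2 lay on the other side of 1 there, with 1.43 and 1.79. Of the 3 lower genes abundant enough to be compared there, 1 was 2-fold lower, and of all 3119 genes compared there, 3 were.

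In the combination over poly I:C, the heat shock genes Hspa1b and Hspa1a were higher, the 2 counted of 15 heat shock and immediate early genes. Over all genes, 0.353% were higher in this comparison. Hspa1b was at 90.1, 89, 61.9 and 202 CPM in control, phenformin, poly I:C and combination, with a ratio of 3.26 (2.91 to 3.66), and Hspa1a at 83, 74.6, 75.6 and 185 CPM, with 2.44 (2.19 to 2.73). With cells that held 3 or more UMIs of other types' markers left out, their log2 ratios were 0.92 and 0.84, under 2-fold. Lower were the neutrophil chemokine Cxcl3 with 0.366 (0.296 to 0.448), the uridine phosphorylase Upp1 with 0.364 (0.304 to 0.435), Chil3 with 0.346 (0.283 to 0.42), the protease inhibitor Slpi with 0.473 (0.389 to 0.572) and Ly6c2 with 0.474 (0.419 to 0.535).

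Of 36 nuclear-encoded genes of complex I, which phenformin inhibits, 0 were counted in any comparison. Their median log2 ratios were 0.08 for phenformin over control and 0.00 for the combination over poly I:C. Of 22 glycolysis and hypoxia genes and 8 integrated stress genes, 0 were counted for phenformin over control. Over all genes, 0.138% were higher and 0.276% lower for phenformin over control, and 0.353 and 0.318% for the combination over poly I:C. At these shares the counts of 0 do not set the lists apart. The combination over phenformin differs by poly I:C. There mt-Nd3, which also encodes a complex I subunit, was the 1 counted of 11 mitochondrially encoded genes, with 0.398 (0.365 to 0.434). The stress factor Ddit3 had 2.34 (1.93 to 2.84) and the cystine carrier Slc7a11 0.489 (0.451 to 0.53) in that comparison.

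For some genes past 2-fold, most UMIs lay in 1 cell. In control 1 cell held 77.7% of 247 Col1a2 UMIs, and with poly I:C 1 cell held 77.8% of 472 Krt14 UMIs. In the combination single cells held 97.4% of 233 Col1a1 UMIs, 86.2% of 224 Sparc UMIs and 74.4% of 356 Mgp UMIs. Without the top cell, the ratio of the combination to poly I:C was 0.408 for Col1a1, in place of 9.3, and 0.965 for Sparc, in place of 4.24. Other ratios stayed past 2-fold without the top cell, though below the 50 CPM needed to be counted. Krt14 had 4.45 for poly I:C over control, Col1a2 had 0.0112 for phenformin, from fewer than 3 UMIs with phenformin, and 0.266 for poly I:C over control, and Mgp had 7.6 over poly I:C and 28.7 over phenformin in the combination. Over phenformin, Col1a1 had 5.67, from 6 UMIs in the combination, and Sparc 3.26. Col1a1, Col1a2 and Sparc are transcripts of fibroblasts and Krt14 is a keratin of basal epithelium. In control 1 cell held 41.7% of 345 Timp1 UMIs, and the ratio of phenformin to control was 0.233 with it and 0.372 without it.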

How the data were processed

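The deposited values are unnormalized UMI counts for each gene in each barcode. The authors used Cell Ranger 3.1.0 and mm10 (GRCm38), per the submitters' processing notes. The sources used here name no later filter and no doublet removal. Each matrix has 27998 features. The libraries held 7309, 6539, 7668 and 9303 barcodes in control, phenformin, poly I:C and combination, of which 6095, 5453, 6619 and 8268 passed 200 genes and under 20% mitochondrial UMIs. Doublets were not called; instead, cells with 3 or more UMIs of other types' markers, 43.5, 51.2, 48.6 and 35.2% of the chosen cells and mostly marked by Pecam1 and Cdh1, were left out as an alternative.

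Raw UMIs of the chosen cells were summed per library, and ratios of CPM were given with exact conditional binomial intervals at the 95% level. With 1 library per treatment no test was made, cells were not used as replicates, and intervals and floors cover counting error only. A gene was compared at 50 CPM and 30 UMIs in the higher library and counted at 2-fold with an interval that excludes 1. The genes named are the 10 highest and 10 lowest counted genes over control and the 5 highest and 5 lowest in the other comparisons, the 15 highest and 10 lowest by median ratio to other macrophages, and members of 35 lists of 509 genes, of which 502 are in the files. The cells and the lists were chosen with earlier results of these data known. The script was tested on simulated data.

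Alternatives were 500 genes with 10% mitochondrial UMIs, a minimum of 3 or 10 Mmp12 and Mmp13 UMIs, thinning to 5000 UMIs, TMM scaling, means over cells, no filter on low counts, and macrophages with 0 Mmp12 and Mmp13 UMIs as the other group. Promoter windows are from RefSeq and gene positions from GENCODE. Python 3.11.15, numpy 2.4.6, scipy 1.17.1, pandas 2.3.3, matplotlib 3.10.9, R 4.3.3 and edgeR 4.0.16 (for TMM factors) were used.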

Additional observations from a re-analysis of the deposited data

Results flagged for a closer look

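Retnla, which encodes a resistin-like protein of alternative activation, had ratios on opposite sides of 1 in the 2 comparisons that add phenformin. Its ratio was 0.448 for phenformin over control and 3.96 for the combination over poly I:C. The levels behind them were 630.4, 282, 94 and 372 CPM in control, phenformin, poly I:C and combination, with 1 library each, and the difference between the 2 ratios was not tested. In the combination 35 of 307 cells had a Retnla UMI, and without the cell with most of them the ratio over poly I:C was 4.54. Within cells of 0 Mmp13 UMIs the ratio of the combination to poly I:C was 7.96, and within cells of 5 or more it was 0.117, from 22 UMIs in the combination and 328 with poly I:C. For phenformin over control the ratios were 0.474 (0.445 to 0.506) and 0.799 (0.694 to 0.922). So the 2 ratios lay on opposite sides of 1 in cells of 0 Mmp13 UMIs, and both lay below 1 in cells of 5 or more.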

How the results depend on the processing

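No paired analysis was possible because each treatment had 1 library. With a minimum of 3 Mmp12 and Mmp13 UMIs the shares of non-cycling macrophages were 25.5, 30.2, 27.8 and 17.8% in control, phenformin, poly I:C and combination, with a minimum of 10 they were 17.5, 21.1, 17.2 and 11.7%, and in cells thinned to 5000 UMIs 18.9, 19.1, 17.3 and 12%; the combination was the lowest in each. With cells holding 3 or more UMIs of other types' markers left out, the shares were 20.6, 22.5 and 20.3% in the first 3 libraries. Genes higher with phenformin than in control numbered 8 with the minimum of 10, 15 in thinned cells and 9 without the cells holding other types' markers. Over control, poly I:C had 61 higher genes without those cells, and 86 lower genes, against 65 lower in thinned cells. The combination over phenformin had 62 lower genes in thinned cells, and the combination over poly I:C had 5 higher genes without the top cell of each gene. With no filter on low counts the higher and lower genes numbered 114 and 313 for phenformin over control, 272 and 434 for poly I:C over control, 251 and 144 for the combination over poly I:C, and 405 and 241 for the combination over phenformin, where genes of few counts enter. The cause of the other changes was not tested.

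Among counted genes, the log2 ratios that changed sign belong to genes carried by few cells. For Col1a2 the ratio was 0.14 for phenformin over control and 0.13 for poly I:C over control without cells holding other types' markers, and 2.19 for poly I:C over control in thinned cells. For Krt14 over control with poly I:C it was -0.45 without those cells and -0.71 when Pecam1 and Cdh1 were dropped from the marker lists; for the combination over poly I:C it was 0.38 in thinned cells and 0.44 with the shorter lists. For S100a9 it was -0.41 for the combination over poly I:C without the cells holding other types' markers. For Sparc it was -0.92 with the minimum of 10, -1.56 in thinned cells and -0.051 without the top cell for the combination over poly I:C, and -0.25 and -0.32 with the minimum of 10 and in thinned cells over phenformin. For Col1a1 in the combination over poly I:C it was -2.90 with the minimum of 10, -3.03 in thinned cells, -1.19 and -0.39 under the longer and shorter marker lists and -1.29 without the top cell, and over phenformin it was -1.20 under the longer lists.

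Of the single-gene values under the alternatives, 1095 were the same: counted genes stayed counted in their direction, and others stayed within the main interval. Leaving out the filter on low counts gave 134 of these, and that alternative changes no ratio. Another 140 kept their direction but no longer met the conditions to be counted. Of genes not counted at first, 7 became counted in the same direction and 79 lay outside the main interval. A change of sign was recorded for 19 values of counted genes and was not looked for in the others. The alternatives on the top cell and on the shorter marker lists were chosen after seeing the data. With 1 library per treatment no interval holds the spread between tumours, and the intervals of CPM ratios do not hold the spread between cells.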
